A study of Homo sapiens with 8 samples.

Results

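The BCL2 family genes described here were 10 of the 38637 genes in the deposited expression table: the anti-apoptotic BCL2, BCL2L1, MCL1 and BCL2A1, the effector BAK1, and the BH3-only genes BCL2L11, BMF, BID, BAD and BIK. They were chosen by name as family genes that are not on a list of p53 targets. The rule used no measured value, but earlier results of these data were known when the genes were chosen. Not every family gene is covered, and 13 others were kept as a separate list. All 10 were found in the table, and 9 of them passed the low-count filter in each comparison. RNA-seq of poly(A) RNA was made from cells labelled SW1990, a human pancreatic cancer cell line, in 4 groups of 2 libraries. Vector libraries (numbers 2 and 3) carried the control vector and EBF2-OE libraries (numbers 2 and 3) overexpressed EBF2, a transcription factor. Vehicle libraries (numbers 1 and 2) received the mock treatment, and GSK-LSD1 libraries (numbers 1 and 2) received GSK-LSD1, a selective inhibitor of the histone H3K4 demethylase KDM1A (LSD1), at a labelled 2000 µM. The label is above the highest dose in the paper's protein blots of SW1990 cells, and the unit could not be checked. Selectivity at this dose was not tested. The 2 experiments asked what raised EBF2, or blocked removal of H3K4 methylation, did to transcription in these cells. The labels do not give the treatment time, do not say whether 2 libraries of a group came from separate cultures, and all libraries are from 1 cell line, so p-values measure the spread between these libraries only.

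BCL2 family proteins decide whether the outer mitochondrial membrane of a cell under stress is opened. Anti-apoptotic members hold the effectors BAK and BAX in check, and BH3-only proteins, which are induced or released by stress signals, bind the anti-apoptotic members or the effectors and so favour membrane opening, release of cytochrome c and activation of caspases. BCL2L1 encodes BCL-XL, and BCL2 itself is best known from lymphoid cells.

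The libraries held between 20453362 and 27054876 counts on genes. EBF2 had 28 counts in each Vector library, 5818 in EBF2-OE 2 and 90100 in EBF2-OE 3, so the libraries labelled EBF2-OE both carried EBF2 but at very unequal levels. KDM1A, the target of the inhibitor, was present in every library (119.0 to 177.4 TPM, a transcript level scaled for gene length and library size). Of 6 epithelial marker genes, KRT8, KRT18 and MUC1 were abundant, whereas EPCAM, KRT19 and CDH1 did not exceed 1.42, 1.57 and 1.12 TPM in any library. These 3 defining markers were thus near 0 in cells labelled as an epithelial cancer line, and the identity of the line was not tested. Of 7 markers of other cell types, CD3E, PRSS1 and INS had no count in any library, COL1A1 lay between 30.5 and 45.2 TPM and CD68 between 10.9 and 30.9 TPM.

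By TPM, MCL1 was the most abundant member in every group, BCL2L1, BAD, BAK1 and BID came next, BIK, BCL2L11 and BMF lay between 1.49 and 12.4 TPM, and BCL2 stayed near 1 TPM. The deposited TPM divides by a listed gene length, which for the members was 1.0 to 1.55 times the exon length of the GENCODE canonical transcript (1.55 for BCL2, 1.51 for BCL2L11, 1.32 for BAD and 1.0 for MCL1 and BIK), so levels of different genes are comparable only to within such factors. With the canonical length, chosen after seeing the data, MCL1 stayed above BAD in Vector, EBF2-OE and Vehicle 1, whereas BAD was above MCL1 in Vehicle 2 and both GSK-LSD1 libraries (MCL1 to BAD ratio 0.964, 0.827 and 0.927). BCL2 remained the lowest detected member in all 8 libraries with either length. Neighbours in the order by TPM overlapped in several groups: BAD with BCL2L1 and BCL2L11 with BIK in both Vector and EBF2-OE, BAK1 with BID and BIK with BMF in Vector, BAD with BAK1 in EBF2-OE, and BMF with BIK in Vehicle. In GSK-LSD1 no neighbours overlapped. BCL2A1, an anti-apoptotic gene known as an NF-κB target in blood cells, had 0 counts in all 8 libraries, which allows a level of up to 0.345 to 0.466 TPM (3 counts), counting error only. It could not be tested.

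**Figure D1:**
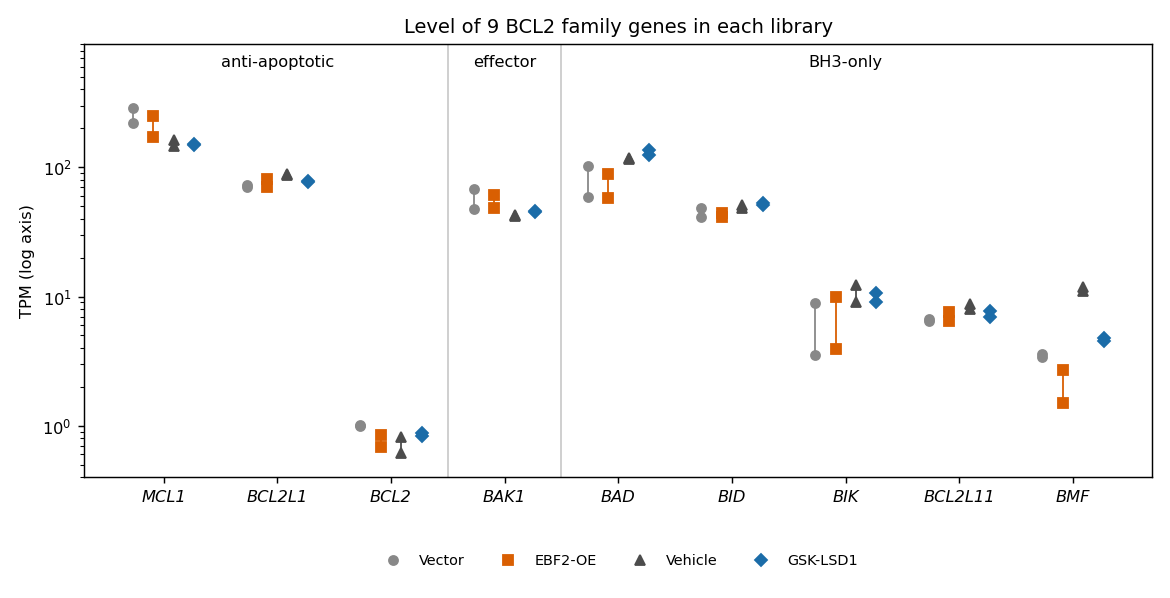
Level of the 9 detected BCL2 family genes in each of the 8 libraries, in TPM on a log axis, with the 2 libraries of a group joined by a line and genes ordered by role. On this scale of listed gene lengths MCL1 lies at the top and BCL2 at the bottom in every group, and BMF is the member for which the Vehicle libraries (11.9 and 11.1 TPM) stand farthest above the other groups.

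In the comparison of GSK-LSD1 with Vehicle, BMF fell and none of the other 8 tested members was called. BMF encodes a BH3-only protein that is tethered to the cytoskeleton through dynein light chain DYNLL2 and binds anti-apoptotic members when released. The Vehicle libraries held 570 and 572 of its reads and the treated libraries 206 and 209, or 11.9 and 11.1 TPM against 4.55 and 4.80 TPM (11.5 ± 0.614 and 4.68 ± 0.178, SD, n = 2 each). Both GSK-LSD1 libraries lay far below both Vehicle libraries, and the gap was many times the spread within either group. The log2 fold change was -1.27 (SE 0.104, 95% interval -1.50 to -1.04), a 2.41-fold lower level, with an edgeR quasi-likelihood adjusted p of 3.23e-05 (Benjamini-Hochberg), rank 71 among 16059 tested genes. A call here is an adjusted p under 0.05 with a fold change above 1.5, and 4.57% of the tested genes were called, 2.04% as lower. Against that background, 1 call among 9 members says nothing particular about the family. In a model fitted over all 8 libraries, which lets the wider spread of the EBF2 experiment enter, the log2 fold change was -1.26 and the edgeR adjusted p was 0.0519, so the call was lost. The 6 epithelial markers summed to 6330 to 6440 TPM in Vehicle and 4820 to 4900 TPM in GSK-LSD1, nearly all from KRT8 and KRT18 (log2 -0.30 and -0.45). CDH1 and MUC1 stood at 0.20 and 0.16, the median of the 4 tested was -0.07 and 0 were called. KRT8 and KRT18 missed the call only by the fold limit (edgeR adjusted p = 0.000251 and 4.11e-05). With no fold limit, 18.7% of all tested genes had an edgeR adjusted p under 0.05. The other-cell-type markers summed to 41.7 to 45.3 TPM in Vehicle and 53.9 to 54.2 TPM in GSK-LSD1. Of these, CD68 and COL1A1, both higher, also missed the call only by the fold limit (edgeR adjusted p = 0.0117 and 0.013). The part of either marker set in the BMF result was not tested. In bulk RNA, fewer cells expressing a gene and less RNA per cell cannot be told apart.

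**Figure D2:**
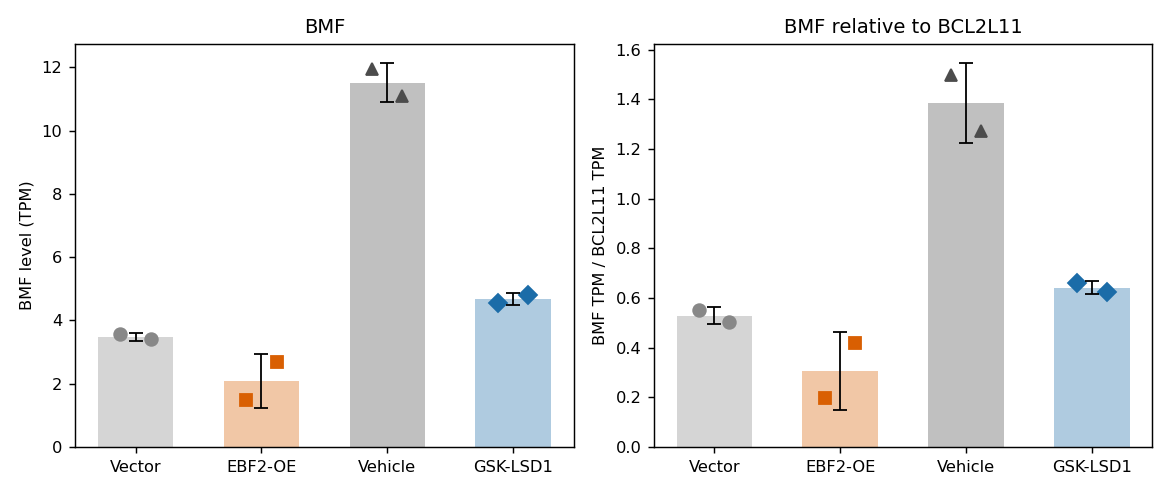
Left, BMF level in TPM by group; right, BMF TPM divided by BCL2L11 TPM, with points for libraries, bars for the group mean and error bars for 1 SD (n = 2). Both Vehicle libraries are highest in both panels, and GSK-LSD1 lies between 4.55 and 4.80 TPM, above Vector and EBF2-OE.

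BMF is listed at chr15:40087890-40108879 on the minus strand (hg38), with 4963 bases of listed length. GENCODE v44 gives it 10 transcripts, and its canonical transcript has 5 exons, 3 of them coding. RefSeq (GRCh38.p14) lists 2 start sites for BMF, at 40108879 and, inside the gene, at 40106966, and counts per gene do not separate them. The bases upstream of both starts are shown because BMF is the member that was called under the inhibitor, and those of BCL2L11, the gene for the related BH3-only protein BIM, because it was not. They lie at chr15:40108893-40109129 (minus strand, 13 bases next to the start that GENCODE places in an exon are left out), chr15:40106967-40107216 (minus strand) and chr2:111120664-111120913 (plus strand), and capitals mark matches to the motifs searched.
BMF upstream start: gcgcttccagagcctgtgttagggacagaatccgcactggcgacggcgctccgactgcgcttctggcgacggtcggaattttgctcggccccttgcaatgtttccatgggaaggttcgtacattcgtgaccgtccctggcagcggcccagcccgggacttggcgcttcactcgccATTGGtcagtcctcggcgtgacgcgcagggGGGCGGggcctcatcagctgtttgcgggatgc
BMF internal start: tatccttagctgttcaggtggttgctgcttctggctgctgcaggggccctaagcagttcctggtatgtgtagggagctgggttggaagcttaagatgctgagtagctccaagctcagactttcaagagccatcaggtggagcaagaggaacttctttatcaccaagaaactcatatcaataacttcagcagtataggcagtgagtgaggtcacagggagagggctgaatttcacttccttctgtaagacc
BCL2L11: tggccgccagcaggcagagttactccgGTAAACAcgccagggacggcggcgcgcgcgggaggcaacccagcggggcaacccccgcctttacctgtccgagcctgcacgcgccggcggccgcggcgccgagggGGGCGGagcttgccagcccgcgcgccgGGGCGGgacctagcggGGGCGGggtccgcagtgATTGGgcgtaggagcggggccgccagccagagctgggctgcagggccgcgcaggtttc
Motifs were searched on both strands in the 250 bases before each start: the FOXO motif GTAAACA, the AP-1 motif TGANTCA, the E-box CACGTG, the GC box GGGCGG and the CCAAT box CCAAT. The upstream BMF start had a CCAAT box that began 75 bases before the start and a GC box that began 45 bases before it, whereas the internal start matched none of the 5 motifs. BCL2L11 had a FOXO motif beginning 223 bases before its start, a CCAAT box at 58 bases and GC boxes at 118, 91 and 75 bases. None of these matches overlapped another. Of the 35116 RefSeq windows of this length, 32.0% held a CCAAT box, 42.6% a GC box and 2.98% the FOXO motif. The AP-1 motif, present in 6.57% of all windows, was found in none of the 15 windows of the 8 members that have one. The E-box (6.34% of all windows) was found in 2, both of BID, and these windows overlap and hold the same site. GC content of the 250 bases was 65.2% and 48.8% at the 2 BMF starts and 76.8% at BCL2L11. A match is a run of letters, and binding of a factor was not measured here.

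None of the other 4 BH3-only members was called under GSK-LSD1, and whether their changes differed from that of BMF was not tested. BCL2L11 stood at 7.97 and 8.71 TPM in Vehicle and at 6.89 and 7.71 TPM in GSK-LSD1, lower in both treated libraries, with a log2 fold change of -0.16 (SE 0.0891, edgeR adjusted p = 0.248). BAD, whose protein is kept inactive by survival kinases, had 118.5 and 115.1 TPM in Vehicle and 135.5 and 123.9 TPM in GSK-LSD1. Both treated libraries were above both controls, but the log2 difference of 0.19 (SE 0.0711) had an edgeR adjusted p of 0.0944. BAD overlaps GPR137 on the opposite strand (891 to 1328 counts for that gene), and the library kit named in the labels does not mark strand, so reads of the shared bases cannot be assigned with certainty. BID, which links death receptors to mitochondria after cleavage by caspase-8, read 50.8 and 48.0 TPM in Vehicle and 51.1 and 53.2 TPM in GSK-LSD1 (log2 0.11, SE 0.0654, edgeR adjusted p = 0.271). The groups did not overlap for BID, by a margin smaller than the spread within either group. BIK, an endoplasmic reticulum BH3-only protein, ran from 8.997 to 12.4 TPM in Vehicle and from 8.993 to 10.7 TPM in GSK-LSD1, with overlapping groups and an edgeR adjusted p of 0.84.

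The ratio of BMF to BCL2L11 was highest in the Vehicle libraries. By TPM, BMF was 1.499 and 1.27 times as abundant as BCL2L11 in Vehicle and 0.661 and 0.623 times as abundant in GSK-LSD1. In Vector the ratio was 0.552 and 0.504, and in EBF2-OE it was 0.197 and 0.418. Which gene was more abundant in Vehicle depended on gene length: with canonical lengths the ratio was 1.05 in Vehicle 1 and 0.890 in Vehicle 2, 0.462 and 0.436 in the treated pair, and 0.138 to 0.386 in the EBF2 experiment. BMF made up 5.93% and 5.77% of the summed TPM of the BH3-only members in the Vehicle libraries and 2.18% and 2.42% under GSK-LSD1. The shares in the other experiment were 2.12% and 2.99% for Vector and 1.24% and 1.87% for EBF2-OE. BAD supplied the largest share of this sum in every library, between 47.9% and 64.9%, and between 49.8% and 66.9% with canonical lengths. The sum leaves out family genes outside the members, such as BBC3 (7.99 to 28.55 TPM over the 8 libraries), PMAIP1 (8.28 to 13.57 TPM) and HRK (1.07 to 2.37 TPM).

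Transcripts of the anti-apoptotic members and of BAK1 changed little under GSK-LSD1. MCL1, a short-lived protein that guards against BAK and BIM, had 161.4 and 146.1 TPM in Vehicle and 147.6 and 151.4 TPM in GSK-LSD1. The treated libraries fell inside the range of the controls, and the log2 fold change was -0.01 (95% interval -0.14 to 0.13). BCL2L1, which encodes BCL-XL, had 87.5 and 88.0 TPM in Vehicle and 77.0 and 77.9 TPM in GSK-LSD1. Both treated libraries were lower by more than the spread in either group, yet the log2 difference of -0.15 (SE 0.0517, unadjusted p = 0.0172) gave an edgeR adjusted p of 0.0756. The antisense gene ABALON overlaps BCL2L1 and held 608 to 1117 counts, so a part of this value may belong to the other strand. BCL2 had few reads, 63 and 91 in the controls against 86 and 78 in the treated libraries, that is 0.613 and 0.818 against 0.882 and 0.832 TPM. Both treated libraries were above both controls by a small margin, with a log2 fold change of 0.29 (SE 0.194, 95% interval -0.14 to 0.72, edgeR adjusted p = 0.335). It was 0.12 without Vehicle 1 and 0.50 without Vehicle 2. BAK1, which forms the membrane pore, read 42.0 and 43.0 TPM in Vehicle and 45.5 and 46.1 TPM under the inhibitor, higher in both treated libraries by a margin that did not pass the test (log2 0.14, SE 0.0656, edgeR adjusted p = 0.166).

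Across the 9 tested members, the groups of GSK-LSD1 and Vehicle did not overlap for 7, with 4 higher and 3 lower in GSK-LSD1, and the same was true of 60.2% of all tested genes, 30% higher and 30.2% lower. The median log2 fold change of the members was -0.01, and that of all tested genes was also -0.01. For 7 of the 9 members the whole 95% interval lay inside a fold change of 1.5 in either direction. The exceptions were BMF, which was called, and BCL2, whose interval reached past that limit on the higher side.

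**Figure D3:**
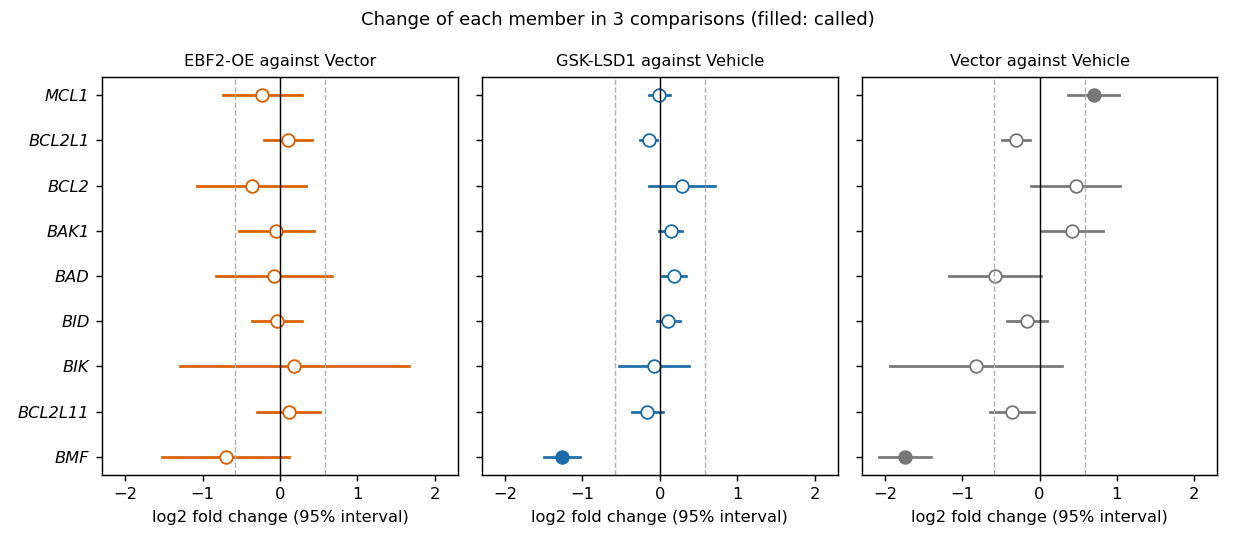
Log2 fold change of each tested member with its 95% interval in EBF2-OE against Vector, GSK-LSD1 against Vehicle and Vector against Vehicle, where filled points were called and dashed lines mark a fold change of 1.5. BMF is the one filled point under GSK-LSD1 (-1.27), no point is filled for EBF2-OE, and MCL1 (0.70) and BMF (-1.74) are filled between the controls.

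In the comparison of EBF2-OE with Vector, none of the 9 tested members was called, and 0% of the 15560 tested genes was called. EBF2, the overexpressed gene itself, was among the genes not called, although its log2 fold change was 10.75 (SE 1.55). The absence of a call in this comparison therefore does not show that a member was unchanged. With the main settings, 0 members and 148 genes (0.951%) had an unadjusted edgeR p under 0.05 and a fold change above 1.5. For BMF this depended on the settings, as given below. DESeq2 called 7 genes and 0 members. BMF had the largest log2 difference among the members. Its counts were 138 and 152 in Vector and 57 and 114 in EBF2-OE, which correspond to 3.58 and 3.40 TPM and to 1.49 and 2.68 TPM. Both EBF2-OE libraries were below both Vector libraries, but they differed from each other by 1.80-fold, and the log2 fold change of -0.70 (SE 0.338, 95% interval -1.53 to 0.12) had an unadjusted p of 0.0812 and an edgeR adjusted p of 1. Without EBF2-OE 2 the value was -0.35, and without EBF2-OE 3 it was -1.20. The library with less EBF2, EBF2-OE 2, had the lower BMF level.

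BCL2 was the only other member whose groups were separate in this comparison. It read 1.01 and 0.996 TPM in Vector and 0.681 and 0.841 TPM in EBF2-OE, a log2 difference of -0.37 (SE 0.288, edgeR adjusted p = 1) on 56 to 96 counts per library. Leaving out EBF2-OE 2 gave -0.22, and leaving out EBF2-OE 3 gave -0.54. Groups that did not overlap were seen for 2 of 9 members, both lower in EBF2-OE, and for 22.9% of all tested genes, 10.8% lower. The members' median log2 fold change was -0.05 and that of all tested genes was 0.00.

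For the remaining members the 2 libraries of a group differed by more than the groups did, in EBF2-OE or in both groups. It was so in both groups for MCL1, BAK1, BID, BAD and BIK. Their fold changes between groups were 1.17, 1.03, 1.03, 1.06 and 1.14. MCL1 had 289.0 and 218.4 TPM in Vector and 250.6 and 172.6 TPM in EBF2-OE (log2 -0.23, SE 0.209). The number 3 library was lower than the number 2 library in both groups, by 1.32-fold in Vector and by 1.45-fold in EBF2-OE. BIK showed the same split with 8.93 and 3.5 TPM in Vector and 9.84 and 3.93 TPM in EBF2-OE, a 2.552-fold and a 2.503-fold gap within groups, and its log2 fold change of 0.18 carried an SE of 0.607. BAK1 followed it with 68.1 and 47.7 TPM in Vector against 60.8 and 48.6 TPM in EBF2-OE. BAD did not: its level was higher in number 2 of Vector (101.6 against 58.5 TPM) and higher in number 3 of EBF2-OE (89.0 against 57.9 TPM). BCL2L1 with 73.3 and 70.9 TPM in Vector and 70.8 and 80.6 TPM in EBF2-OE, and BID with 48.4 and 41.6 TPM in Vector and 44.1 and 41.4 TPM in EBF2-OE, were close in all 4 libraries. BCL2L11 stood at 6.48 and 6.74 TPM in Vector and at 7.59 and 6.41 TPM in EBF2-OE, again with overlapping groups. The 95% interval lay within a fold change of 1.5 for 4 members, BCL2L1, BAK1, BCL2L11 and BID, and for BMF, BCL2, MCL1, BAD and BIK a change beyond that size could not be told from none with these libraries.

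The Vector and Vehicle controls come from different experiments, and the members differed more between them than in either treatment comparison. MCL1 was higher in Vector (289.0 and 218.4 TPM) than in Vehicle (161.4 and 146.1 TPM), with a log2 fold change of 0.70 (SE 0.134, edgeR adjusted p = 0.0202). BMF was lower in Vector (3.58 and 3.40 TPM) than in Vehicle (11.9 and 11.1 TPM), by a log2 fold change of -1.74 (SE 0.135, edgeR adjusted p = 0.00618), a 3.35-fold gap. These were 2 of 9 members called, against 16% of 16019 tested genes, 5.79% higher and 10.2% lower in Vector. Overlap of groups was judged on counts scaled to library size with TMM, not on TPM. On that scale all 9 members had groups that did not overlap, 3 higher and 6 lower in Vector. The same was true of 70.9% of tested genes, 35.6% higher and 35.3% lower. In TPM the groups of BID did overlap, with 48.4 and 41.6 TPM in Vector and 50.8 and 48.0 TPM in Vehicle. BCL2L1 passed the adjusted p but not the fold limit (log2 -0.30, SE 0.0745, edgeR adjusted p = 0.0362), and 26.8% of tested genes had an adjusted p under 0.05 by the same edgeR test with no fold limit.

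The BMF call between the controls was lost without Vehicle 1 (log2 -1.67, edgeR adjusted p = 0.0635). The MCL1 call was lost without Vector 2 (log2 0.52, under the fold limit), without Vehicle 1 (edgeR adjusted p = 0.115) and without Vehicle 2 (edgeR adjusted p = 0.135). Without Vector 2, BAD (-0.99) and BIK (-1.59) were called as lower in Vector, and without Vector 3, BAK1 (0.64) was called as higher. The vector, the mock treatment and the experiment cannot be told apart in this comparison. It shares the Vector libraries with the EBF2-OE comparison and the Vehicle libraries with the GSK-LSD1 comparison. Side by side, the log2 values of BMF were -1.74 for Vector against Vehicle, -1.27 for GSK-LSD1 against Vehicle and -0.70 for EBF2-OE against Vector, and BMF was thus highest in the Vehicle libraries and lowest in the EBF2-OE libraries.

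The balance among MCL1, BCL2L1 and BCL2 transcripts also followed the experiment. MCL1 supplied 79.5% and 75.2% of the summed TPM of BCL2, BCL2L1 and MCL1 in Vector and 77.8% and 68.0% in EBF2-OE, but 64.7% and 62.2% in Vehicle and 65.5% and 65.8% in GSK-LSD1. BCL2L1 supplied nearly all of the rest, from 20.2% in Vector 2 to 37.5% in Vehicle 2, and BCL2 supplied at most 0.391%. BCL2L2, a family gene outside the members, is not in this sum and lay between 26.4 and 36.4 TPM over the 8 libraries. The ratio of MCL1 to BCL2L1 ran from 1.66 to 1.94 in the 4 libraries of the inhibitor experiment and from 2.14 to 3.94 in the 4 libraries of the EBF2 experiment. With canonical lengths the ranges were 1.37 to 1.61 and 1.77 to 3.26.

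**Figure D4:**
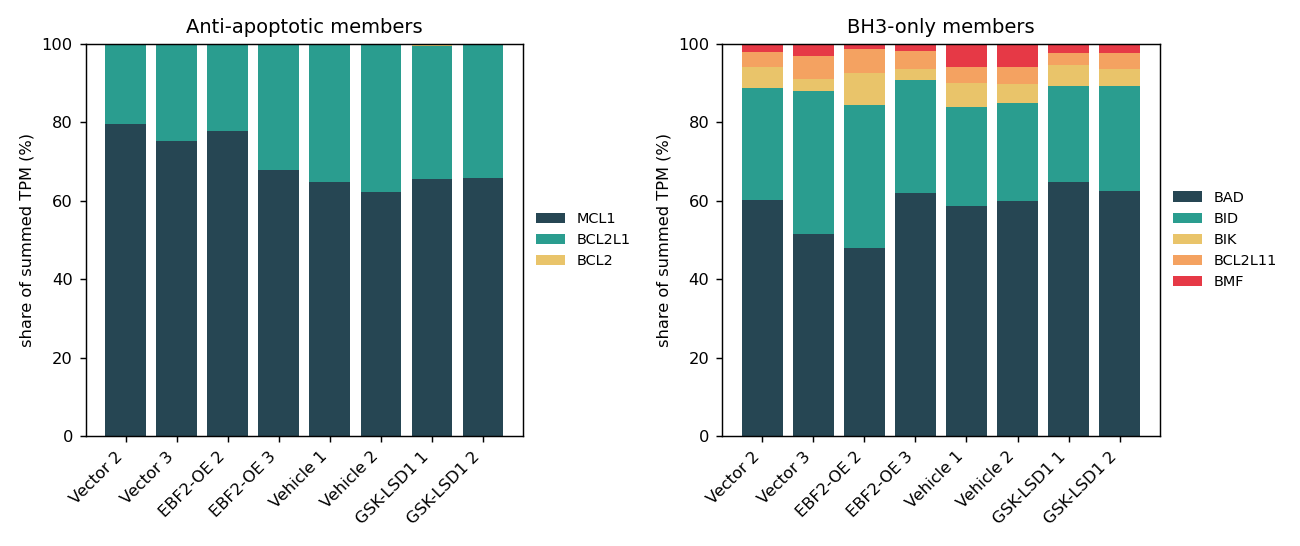
Share of the summed TPM (%) that each anti-apoptotic member (left) and each BH3-only member (right) supplied in each library, as stacked bars from 0 to 100. MCL1 takes 62.2% to 79.5% of the sum of MCL1, BCL2L1 and BCL2, and the BMF segment is widest in the 2 Vehicle libraries (5.93% and 5.77%). Family genes outside the members are not in either sum.

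The effects of GSK-LSD1 and EBF2-OE on each member were compared in a model over all 8 libraries. No member passed the test for a difference, which does not show that the effects were equal. The smallest unadjusted edgeR p was 0.0707, for BCL2. Of the 16558 tested genes, 7.66% had an unadjusted p under 0.05 and 0% passed the adjusted threshold. DESeq2 called 94 genes and 0 members for this difference. For BMF the GSK-LSD1 effect minus the EBF2-OE effect was -0.55 on the log2 scale (SE 0.329, 95% interval -1.30 to 0.20, edgeR adjusted p = 0.759), so the call in 1 comparison and its absence in the other do not show that the effects differed. This value was -0.91 without EBF2-OE 2 and -0.07 without EBF2-OE 3.

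Over the 8 libraries, 3 of 16557 other genes followed BMF most closely on the log2 scale: MAG, a myelin glycoprotein gene, with Pearson r = 0.99, PDCD6-AHRR, a readthrough gene, with r = 0.983, and LOC100996740, an uncharacterized gene, with r = 0.982. The 8 libraries fall into 2 experiments and are not independent points. PDCD6-AHRR read 162.3 and 165.6 TPM in Vehicle and 114.3 and 120.0 TPM in GSK-LSD1. It read 111.0 and 115.6 TPM in Vector and 79.5 and 107.9 TPM in EBF2-OE. MAG reached 2.88 and 2.74 TPM in Vehicle and no more than 1.02 TPM elsewhere.

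Genes around the members were examined as 4 lists. Of 13 other BCL2 family genes, 11 were tested under GSK-LSD1 and 1 was called, against 4.57% of all tested genes. This was HRK, which encodes another BH3-only protein. The counts of HRK were 107 and 129 for Vehicle against 61 and 71 under the inhibitor, lower in both treated libraries (log2 -0.64, SE 0.175, edgeR adjusted p = 0.0281). This call was lost in 5 of 9 alternatives, among them DESeq2 (adjusted p = 0.217) and leaving out Vehicle 2, GSK-LSD1 1 or GSK-LSD1 2 (edgeR adjusted p = 0.0537, 0.199 and 0.0833). PMAIP1, the gene for the BH3-only protein NOXA that binds MCL1, had 8.28 and 9.37 TPM in Vehicle and 13.1 and 12.7 TPM in GSK-LSD1. Both treated libraries were higher, and its log2 fold change of 0.58 (SE 0.0985, edgeR adjusted p = 0.00272) fell just short of the fold limit, which is 0.585 on this scale. The effector gene BAX was level, with 138.1 and 131.1 TPM in Vehicle and 129.9 and 132.6 TPM in GSK-LSD1 (95% interval of the log2 fold change -0.13 to 0.13), and its TPM was 1.86 to 3.29 times that of BAK1 over the 8 libraries (3.44 to 6.08 times with canonical lengths). The list's median log2 fold change was -0.04.

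Of 19 genes listed for the caspase cascade downstream of mitochondria, 1 was called under GSK-LSD1, against 4.57% of all tested genes. The list also holds VDAC1, VDAC2 and VDAC3, which are not genes of the caspase cascade itself. BIRC3, the gene for the ubiquitin ligase cIAP2, had 1.92 and 2.17 TPM in Vehicle and 5.05 and 5.14 TPM in GSK-LSD1. It was higher in both treated libraries, with a log2 fold change of 1.35 (SE 0.119, edgeR adjusted p = 5.07e-05). CYCS, which encodes cytochrome c, had 46.1 and 45.7 TPM in Vehicle and 66.7 and 65.4 TPM in GSK-LSD1, with an edgeR adjusted p of 7.12e-05 and a log2 fold change of 0.56 under the fold limit. The median of the list was 0.02. With no fold limit, 8 of the 19 had an edgeR adjusted p under 0.05, against 18.7% of all tested genes. Of these, CASP9 (log2 -0.21) and ENDOG (log2 -0.51) were lower in GSK-LSD1. The others, BIRC3, CYCS, AIFM1, VDAC1, VDAC2 and VDAC3, were higher. Of 20 genes for turnover, kinases and partners of the members, 0 were called, against 4.57% of all tested genes, at a median of -0.01. With no fold limit, 3 of the 20 and 18.7% of all tested genes had an edgeR adjusted p under 0.05. The 2 with the smallest p were PIM1, a survival kinase gene (log2 -0.26, edgeR adjusted p = 0.0243), and USP13, a deubiquitinase gene (log2 -0.24, edgeR adjusted p = 0.0309). DYNLL2, which tethers BMF, was at 21.0 and 21.5 TPM in Vehicle and at 21.6 and 22.7 TPM in GSK-LSD1 (edgeR adjusted p = 0.325).

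Of 14 transcription factor genes with known links to the members, 1 was called under GSK-LSD1, against 4.57% of all tested genes. DDIT3, the gene for the stress factor CHOP, had 14.6 and 16.5 TPM in Vehicle and 25.6 and 27.5 TPM in GSK-LSD1, higher in both treated libraries (log2 0.81, SE 0.118, edgeR adjusted p = 0.00117). The list's median was -0.11. In the fit over all 8 libraries the calls of HRK, BIRC3 and DDIT3 were lost too, with edgeR adjusted p of 0.469, 0.0601 and 0.066.

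For EBF2-OE against Vector, 0 genes of these 4 lists were called. The smallest unadjusted p belonged to DDIT3, with 56.9 and 55.1 TPM in Vector and 32.8 and 42.9 TPM in EBF2-OE (log2 -0.53, SE 0.189, unadjusted p = 0.0298, edgeR adjusted p = 1). The next of its list was FOXO3 (log2 -0.24, SE 0.125). The 2 leading genes by p were PMAIP1 (-0.17) and BCL2L13 (0.09) among other family genes and AIFM1 (0.16) and CASP6 (-0.22) in the caspase cascade list. Among kinases and partners they were RPS6KA1 (0.30) and PRKACA (0.16). All are log2 fold changes with an edgeR adjusted p of 1. Medians of the 4 lists lay between -0.12 and 0.01.

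**Figure D5:**
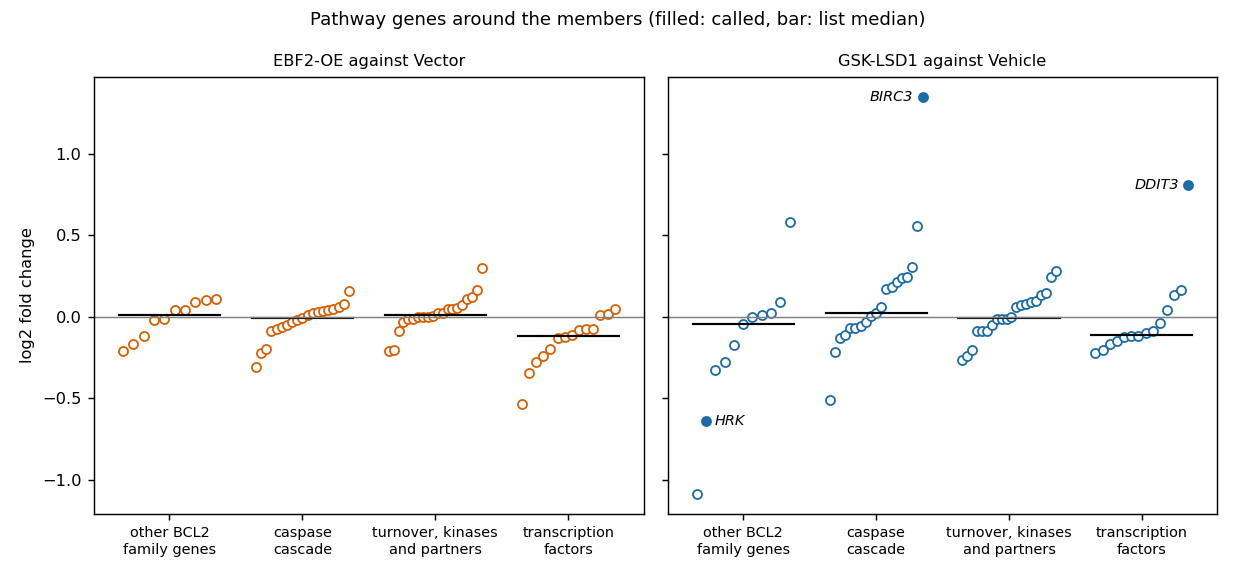
Log2 fold change of each tested gene of the 4 lists in EBF2-OE against Vector (left) and GSK-LSD1 against Vehicle (right), with filled points for called genes and a bar at the list median. BIRC3 (1.35), DDIT3 (0.81) and HRK (-0.64) are the filled points under GSK-LSD1, and no gene is called for EBF2-OE.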

How the data were processed

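RNA-seq of 8 SW1990 libraries was analysed. According to the methods, the authors aligned cleaned paired-end reads to hg38 with HISAT2 and counted them per gene with HTSeq, and the strand setting is not given in the sources used here. The deposited table holds raw counts and TPM for 38637 genes, and the deposited TPM equals the count per listed length rescaled to the library total. Counts were tested with edgeR 4.0.16 (R 4.3.3, TMM, filterByExpr with a minimum count of 10, quasi-likelihood test, two-sided, Benjamini-Hochberg over all tested genes). Each comparison used its own 4 libraries, and the difference of effects used all 8. A gene was called at an adjusted p under 0.05 and a fold change above 1.5. Standard errors came from the test statistic, and intervals are 95%. Likeness to BMF used log2 CPM with a prior count of 2. Whether the groups of a comparison overlapped was judged on counts scaled to library size with TMM. Overlap of neighbours in the order of levels was judged on TPM. DESeq2 1.42.0, its size factors, no filter, a fit over all libraries, a replicate block and leaving out each library were alternatives. For called genes of the 4 lists these were added after seeing the data, as were ratios and shares of members with GENCODE canonical transcript lengths. Scripts were tested on simulated data. Library totals ran from 20453362 to 27054876 counts, and 3 counts were taken as the limit that a count of 0 allows. The members, lists and tests were chosen with earlier results of these data known. Named were all members, each called gene of a list or, where none was called, the 2 with the smallest p, and the 3 genes most like a called member. PMAIP1, BAX, CYCS and DYNLL2 under GSK-LSD1 were named after their values were seen. Coordinates of 8 of the 10 members equal those of RefSeq. Promoter windows came from RefSeq GRCh38.p14 for 8 of the 10 members. Libraries of a group differed by more than sampling noise (chi-square per degree of freedom 4.23 to 23.9) and were kept as 2 libraries. Whether equal replicate numbers pair libraries could not be decided from 2 pairs (correlation of deviations 0.312 in the EBF2 experiment and -0.00995 in the inhibitor experiment).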

Additional observations from a re-analysis of the deposited data

Results flagged for a closer look

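BCL2 was lower in both EBF2-OE libraries than in both Vector libraries and higher in both GSK-LSD1 libraries than in both Vehicle libraries. The margin under GSK-LSD1 was small, with 0.832 TPM in GSK-LSD1 2 and 0.818 TPM in Vehicle 2. Groups that did not overlap were seen for 22.9% of all tested genes in the EBF2-OE comparison and 60.2% in the GSK-LSD1 comparison. The share of genes separate in opposite directions was not counted. The GSK-LSD1 effect (0.29) minus the EBF2-OE effect (-0.37) was 0.67 on the log2 scale in the model over all 8 libraries (SE 0.325, 95% interval -0.07 to 1.41, unadjusted p = 0.0707, edgeR adjusted p = 0.696), and the difference did not pass the test. Leaving out 1 library gave 0.50 to 0.88, the lowest without Vehicle 1 and the highest without Vehicle 2. BCL2 had between 56 and 96 counts per library.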

How the results depend on the processing

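Each member kept its direction under DESeq2, DESeq2 size factors in edgeR, no low-count filter, 1 fit over all 8 libraries and the replicate block. In GSK-LSD1 against Vehicle, 1 member (BMF) was called under each alternative except the fit over all 8 libraries, which called 0 members and 100 genes in place of 734, and the adjusted p of BMF ran from 5.54e-22 to 0.0519. DESeq2 called 470 genes there, leaving out GSK-LSD1 1 or GSK-LSD1 2 gave 439 and 458, and no fold limit gave 3007. Leaving out 1 library kept BMF between -1.34 and -1.19. Canonical transcript lengths lowered the mean BMF to BCL2L11 ratio in Vehicle to 0.970 and the mean MCL1 to BAD ratio to 0.999 in Vehicle and 0.877 in GSK-LSD1, which changes the order of these levels and no fold change. In EBF2-OE against Vector, 0 members were called under each alternative, while the count of genes ran from 0 to 74 (no filter) with an adjusted p. Vector against Vehicle gave 0 to 3 called members when 1 library was left out, 0 without Vehicle 1 and 1 without Vehicle 2, where 12 and 235 genes were called in place of 2558, against 4259 without Vector 2 and 4294 with no fold limit. The replicate block called 763 genes and 1 member under GSK-LSD1, 5 genes and 0 members for EBF2-OE, and changed no call of a member. For Vector against Vehicle no replicate block was fitted, because these groups share only 1 number. The following members changed sign when 1 library was left out. In EBF2-OE against Vector the ranges were BAK1 -0.26 to 0.21, BID -0.12 to 0.051, BAD -0.44 to 0.34, BIK -0.61 to 0.98, BCL2L11 -0.013 to 0.22, BCL2L1 -0.0040 to 0.19 and MCL1 -0.52 to 0.0076. Under GSK-LSD1 they were MCL1 -0.094 to 0.084 and BIK -0.31 to 0.19. For the difference of effects they were BAK1 -0.072 to 0.40, BAD -0.16 to 0.62, BIK -1.06 to 0.53 and MCL1 -0.019 to 0.53. The cause of these changes was not tested. With 2 libraries per group, the median SE of a gene's log2 fold change was 0.193 in the EBF2 experiment and 0.0971 in the inhibitor experiment, which limits what either could detect.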
